A study of Mus musculus with 21 samples.

Results

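Dentate gyrus granule cells are the principal neurons at the entry of the hippocampal circuit: they receive input from the entorhinal cortex and send mossy fibres to CA3. The 9 genes described here, Prox1, Dsp, C1ql2, Tdo2, Lct, Stxbp6, Npnt, Trpc6 and Glis3, are markers of these neurons and were taken by symbol from a count table of 24498 genes. All 9 were in the table and all 9 passed the filter on low counts. Because the dentate gyrus is only a part of the hippocampus, its markers can also describe what a piece of dissected tissue contained. In these bulk samples fewer granule cells and less RNA per granule cell cannot be told apart.

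RNA was sequenced from the hippocampus of male mice aged 8 weeks that received ethanol at 2 g per kg into the peritoneum, as a 20% solution, or no ethanol. The knockdown arm carried an AAV2/9 vector with U6-driven shRNA against Acss2, the enzyme that makes acetyl-CoA from acetate, and a CMV-driven EGFP. The protocol places this injection in the dorsal hippocampus, while by the series text the route could also have been systemic. No vector is described for the control arm, and neither the time between ethanol and dissection nor the animals behind each replicate are stated, so the tests reflect the spread among these libraries, which may be technical. The groups used here, all given ethanol and with over 1000000 gene reads per library, were dorsal knockdown (4 libraries, numbers 1 to 4), dorsal control (3), ventral knockdown (3, numbers 2 to 4), ventral control (4, numbers 1 to 4) and 1 knockdown library of total hippocampus.

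These 15 libraries held 2819837 to 13240179 gene reads. Dorsal knockdown 5 and ventral knockdown 1, with 5021 and 8744 gene reads, and the 4 untreated dorsal libraries, with 4279 to 221847, were too shallow for levels of single members. Acss2 itself stood at 17.7 to 44.7 CPM in dorsal knockdown and at 52.3 to 58.3 CPM in dorsal control, where CPM is reads per 1000000 gene reads after TMM scaling. Those groups did not overlap, where 3.2% of all tested genes had every dorsal knockdown library below every dorsal control. The difference did not pass the test over all genes (log2 fold change -0.84 with an SE of 0.32, Benjamini-Hochberg adjusted p = 0.964 by edgeR's quasi-likelihood test). In ventral tissue Acss2 ranged from 28.8 to 64.4 CPM in knockdown and from 47.5 to 53.4 CPM in control. Its log2 fold change there was -0.215 with an SE of 0.324. Acss2 was at 58.0 CPM in the total-hippocampus library. Among the shallow libraries 2 reads of Acss2 were counted in dorsal knockdown 5 and 0 in the others.

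The members have different jobs in the cell. Prox1 is the homeobox factor that specifies and maintains granule cell identity, and Glis3 is a zinc finger factor. Dsp (desmoplakin, which ties desmosomes to intermediate filaments) and Tdo2 (tryptophan dioxygenase, the entry enzyme of the kynurenine pathway) mark mature granule cells in the mouse. C1ql2 is a secreted C1q-like protein of mossy fibre synapses, Stxbp6 (amisyn) binds syntaxin in SNARE complexes, and Trpc6 is a cation channel of the plasma membrane. Npnt (nephronectin) is an extracellular matrix ligand of integrins and Lct is lactase. Within mouse granule cells, Lct is known to be higher towards the dorsal pole and Trpc6 towards the ventral pole.

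The promoters of Dsp, Lct and C1ql2 are shown because these genes had the widest ranges over the 15 libraries among members whose lowest value rested on 5 or more reads. Each line runs from 250 bases before to 50 after the start of transcription in RefSeq (GRCm38.p6), on the strand of the gene, with every E-box (CANNTG, the motif of basic helix-loop-helix factors; its reverse complement has the same letters) in capitals.
Dsp, chr13:38151044-38151343, plus strand: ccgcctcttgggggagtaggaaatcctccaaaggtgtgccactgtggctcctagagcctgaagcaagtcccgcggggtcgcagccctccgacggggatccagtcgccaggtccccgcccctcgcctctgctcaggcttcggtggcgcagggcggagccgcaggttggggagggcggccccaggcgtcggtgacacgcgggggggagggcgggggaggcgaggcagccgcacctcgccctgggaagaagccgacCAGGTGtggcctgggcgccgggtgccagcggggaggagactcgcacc
Lct, chr1:128328269-128328568, minus strand: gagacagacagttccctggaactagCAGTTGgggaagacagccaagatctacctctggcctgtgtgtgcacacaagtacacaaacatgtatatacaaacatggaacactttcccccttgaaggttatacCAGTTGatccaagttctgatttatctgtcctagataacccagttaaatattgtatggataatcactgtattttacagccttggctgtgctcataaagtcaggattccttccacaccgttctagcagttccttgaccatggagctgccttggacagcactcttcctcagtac
C1ql2, chr1:120340332-120340631, plus strand: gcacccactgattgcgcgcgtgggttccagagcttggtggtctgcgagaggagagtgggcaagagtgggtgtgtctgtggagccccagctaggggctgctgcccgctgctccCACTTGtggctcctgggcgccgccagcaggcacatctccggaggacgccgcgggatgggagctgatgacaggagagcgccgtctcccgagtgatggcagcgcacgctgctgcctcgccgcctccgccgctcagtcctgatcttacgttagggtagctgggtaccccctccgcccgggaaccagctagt
The Dsp promoter held 1 E-box and 4 GC boxes (CCGCCC or GGGCGG) at 73.0% G and C, whereas the Lct promoter held 2 E-boxes, no GC box and 44.7% G and C. The C1ql2 promoter held 1 E-box and 1 GC box at 67.3% G and C. RefSeq lists 11 promoters for the 9 members, with 2 each for Prox1 and Npnt. An E-box was found in 7 of these 11, against 72.3% of all 32851 promoters of the same length, and a GC box in 6 of 11, against 35.7%. The letters TATAAA or TTTATA stood in 2 of 11, those of Prox1 and Tdo2, against 13.6% of all promoters. These matches describe the sequence only.

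Per kilobase of merged exon in the GENCODE M21 annotation, C1ql2 had the highest level of the members, with a median over 15 libraries of 22.0 CPM per kilobase. Stxbp6 followed at 9.05 and Prox1 at 4.40 CPM per kilobase. Trpc6 (2.58), Npnt (2.51), Glis3 (1.58), Dsp (1.21), Lct (0.785) and Tdo2 (0.443) came after them. Neighbours in this order had overlapping ranges over the libraries, and C1ql2 itself ran from 2.32 to 107.0 CPM per kilobase. In GRCm38 the members lie on chromosomes 1 (Prox1, C1ql2 and Lct), 3 (Tdo2 and Npnt), 9 (Trpc6), 12 (Stxbp6), 13 (Dsp) and 19 (Glis3). An exon on the opposite strand overlaps Prox1 by 133 bases (Prox1os) and Dsp by 499 bases (Gm10129). The table has no row for either partner, and as the strand setting of the counting is not given, reads of these pairs cannot be told apart.

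Prox1 (chromosome 1, 190118035 to 190170714, minus strand) was present in every deep library. It stood at 33.7, 15.1, 37.2 and 22.8 CPM in dorsal knockdown 1 to 4 and at 72.9, 17.7 and 36.9 CPM in dorsal control 1 to 3. Ventrally, Prox1 held 75.1, 25.1 and 11.2 CPM in knockdown 2 to 4 and 25.7, 38.1, 180.8 and 55.1 CPM in control 1 to 4. Ventral control 3 was the highest and ventral knockdown 4 the lowest library, and all 4 groups overlapped. Glis3 (chromosome 19, 28258851 to 28680077, minus strand), the other transcription factor, ran over a narrower range. It held 13.96, 13.3, 21.6 and 15.7 CPM in dorsal knockdown and 18.9, 8.42 and 12.1 CPM in dorsal control. In ventral tissue it held 28.6, 8.93 and 8.63 CPM in knockdown and 12.1, 23.7, 50.5 and 26.04 CPM in control. Ventral control 3 was again the highest library, and the groups overlapped.

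Dsp (chromosome 13, 38151294 to 38198577, plus strand) varied most, 308.4-fold between its highest and lowest library. It held 1.44, 2.55, 5.05 and 0.660 CPM in dorsal knockdown and 62.4, 1.99 and 13.4 CPM in dorsal control. Ventrally, Dsp held 11.7, 50.5 and 4.36 CPM in knockdown and 11.96, 7.81, 203.7 and 65.5 CPM in control. The dorsal knockdown libraries were low throughout, from 5 to 47 reads each, but dorsal control 2, with 21 reads, lay among them. Tdo2 (chromosome 3, 81957090 to 81976202, minus strand) was the scarcest member, at 0.432, 1.47, 0.645 and 0.132 CPM in dorsal knockdown and 1.32, 0.189 and 2.27 CPM in dorsal control. In ventral tissue it held 1.72, 9.24 and 0.104 CPM in knockdown and 5.89, 2.77, 8.87 and 2.39 CPM in control. Its lowest values, in ventral knockdown 4 and dorsal knockdown 4, rested on 1 read each, and its highest, in ventral knockdown 3, on 88. The dorsal controls lay below all ventral controls, by 2.27 against 2.39 CPM at the nearest pair.

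C1ql2 (chromosome 1, 120340582 to 120343174, plus strand), at mossy fibre synapses, held 41.2, 64.9, 16.8 and 22.5 CPM in dorsal knockdown and 52.3, 4.64 and 45.1 CPM in dorsal control. Ventrally, C1ql2 held 61.7, 90.1 and 22.3 CPM in knockdown and 18.4, 40.8, 214.9 and 44.0 CPM in control. Dorsal control 2 was the lowest and ventral control 3 the highest library. Stxbp6 (chromosome 12, 44852484 to 45074709, minus strand) was steadier, at 33.1, 48.0, 32.0 and 46.9 CPM in dorsal knockdown and 40.9, 41.2 and 50.7 CPM in dorsal control. In ventral tissue it held 103.5, 60.6 and 31.6 CPM in knockdown and 54.8, 44.6, 144.8 and 60.8 CPM in control. Its dorsal groups spanned nearly the same values, and its highest library held 4.58 times its lowest. Trpc6 (chromosome 9, 8544142 to 8680741, plus strand) held 11.7, 13.1, 14.4 and 11.5 CPM in dorsal knockdown and 10.5, 8.99 and 14.7 CPM in dorsal control. Ventrally, Trpc6 held 21.8, 10.2 and 12.1 CPM in knockdown and 12.1, 16.1, 41.6 and 19.1 CPM in control. All its groups overlapped, and 41.6 CPM in ventral control 3 was the only value above 21.8 CPM.

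Npnt (chromosome 3, 132881745 to 132950291, minus strand) held 8.06, 8.92, 10.3 and 8.58 CPM in dorsal knockdown and 22.8, 10.3 and 12.6 CPM in dorsal control. In ventral tissue it held 31.1, 18.9 and 12.3 CPM in knockdown and 9.28, 22.7, 68.7 and 27.2 CPM in control. Its dorsal knockdown libraries were close together and lay below all 3 ventral knockdown libraries. Lct (chromosome 1, 128284756 to 128328318, minus strand), the dorsal-leaning member, held 2.45, 2.75, 12.4 and 1.85 CPM in dorsal knockdown and 50.5, 1.42 and 5.03 CPM in dorsal control. Ventrally, Lct held 11.3, 48.6 and 1.56 CPM in knockdown and 3.21, 3.02, 104.2 and 38.1 CPM in control. Its high libraries, above 25 CPM, were dorsal control 1, ventral knockdown 3, ventral controls 3 and 4 and the total-hippocampus library, so they came from both regions and both arms. The total-hippocampus knockdown library stood above the median of the 15 libraries for 7 of 9 members, with 54.9 CPM of Prox1, 51.6 CPM of Dsp and 25.3 CPM of Lct.

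**Figure D1:**
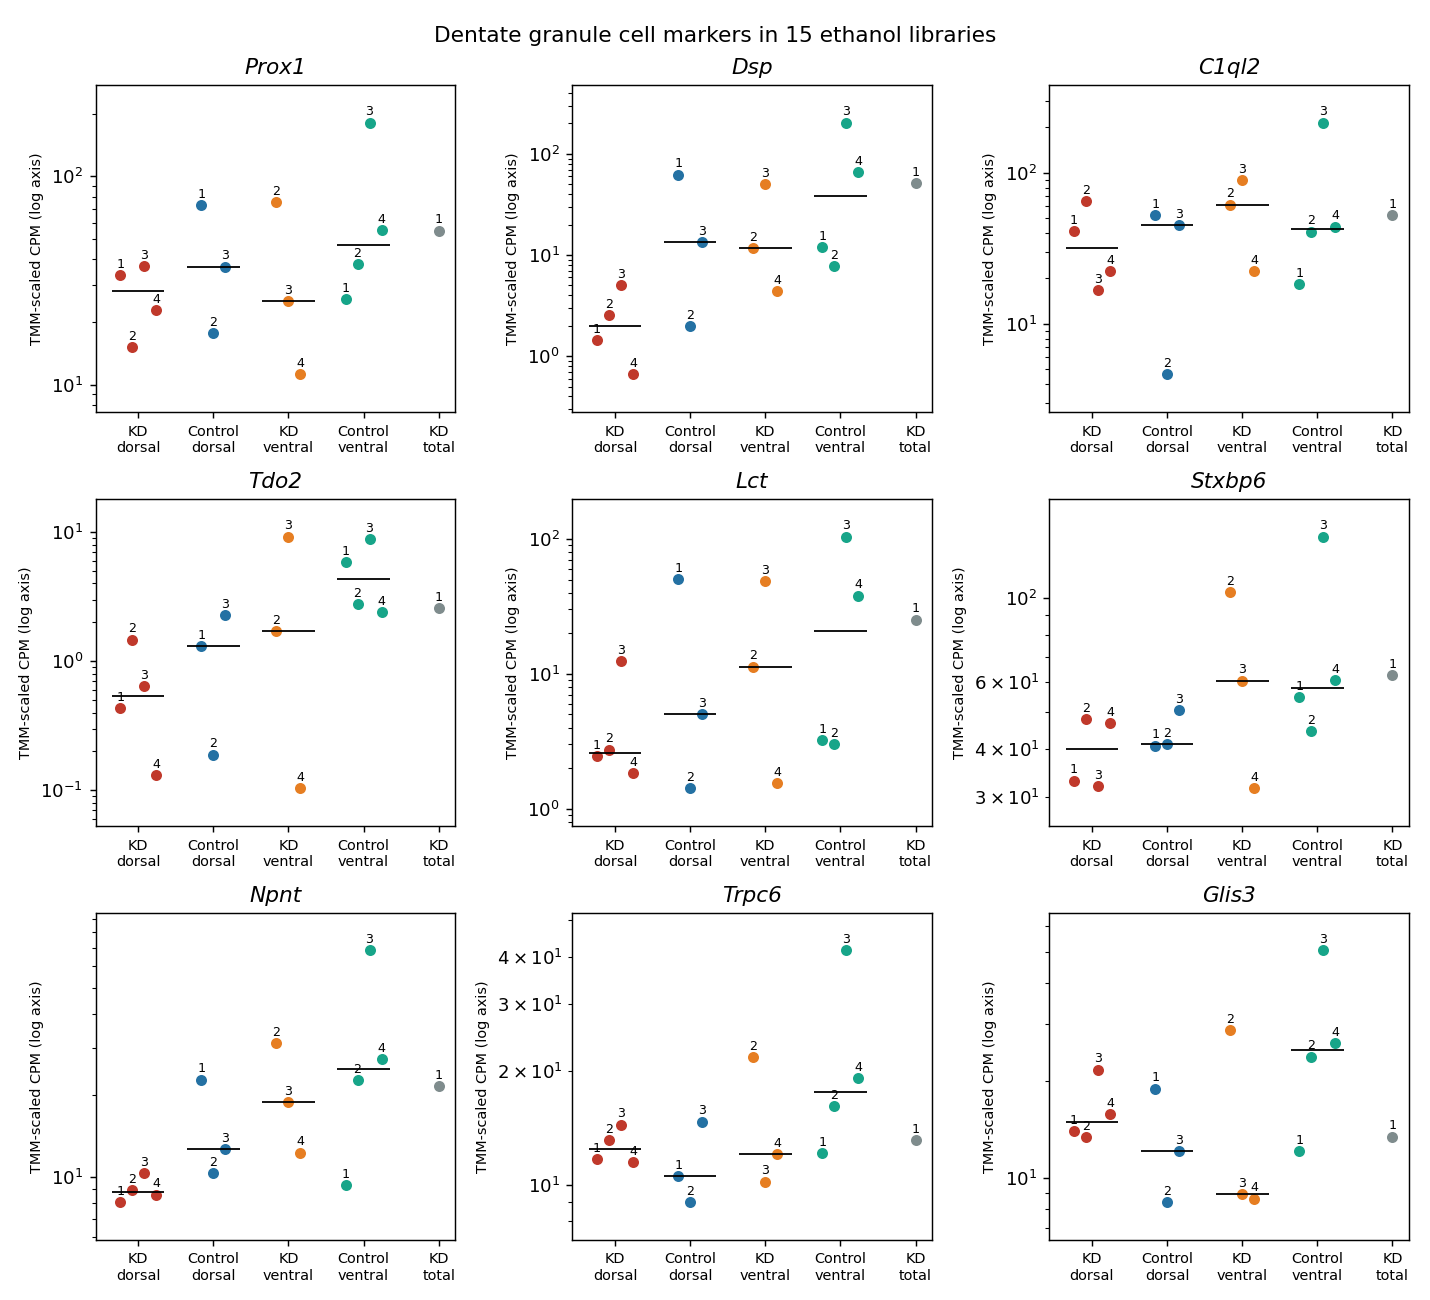
TMM-scaled CPM (log axis) of each granule cell marker in the 15 deep libraries, by group; points are libraries with their replicate numbers and lines are group medians. Ventral control 3 is the highest library for 8 of 9 genes, and the groups overlap for most.

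The members were high or low together in some libraries and spread in others, across the labels. With rank 1 as the highest of the 15 libraries, member ranks ran from 1 to 14 in ventral knockdown 3. They ran from 2 to 13 in dorsal control 1 and from 3 to 14 in dorsal knockdown 2. Ventral control 3 was the highest library for 8 of 9 members and the second highest, after ventral knockdown 3, for Tdo2. In it the members stood at 2.41 (Tdo2) to 7.16 (Dsp) times the mean of the other 3 ventral controls. The lowest library was dorsal control 2 for 4 members, ventral knockdown 4 for 3, and dorsal knockdown 1 and 4 for 1 each. No member stood above its 15-library median in dorsal control 2, dorsal knockdown 1 or ventral knockdown 4.

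The mean over the 9 members of log2 CPM, each relative to its own mean, summarises this. It was -0.91, -0.60, -0.40 and -1.26 in dorsal knockdown 1 to 4 and 0.71, -1.53 and -0.032 in dorsal control 1 to 3. In ventral libraries it was 0.65, 0.80 and -1.23 in knockdown 2 to 4 and -0.24, 0.018, 2.43 and 0.93 in control 1 to 4. Ventral control ran from -0.24 to 2.43, and the SD within groups, pooled over the 4 groups, was 0.999 on this log2 scale. All 4 dorsal knockdown values were below 0, as were 2 of 3 dorsal controls, 1 of 3 ventral knockdown and 1 of 4 ventral control libraries.

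**Figure D2:**
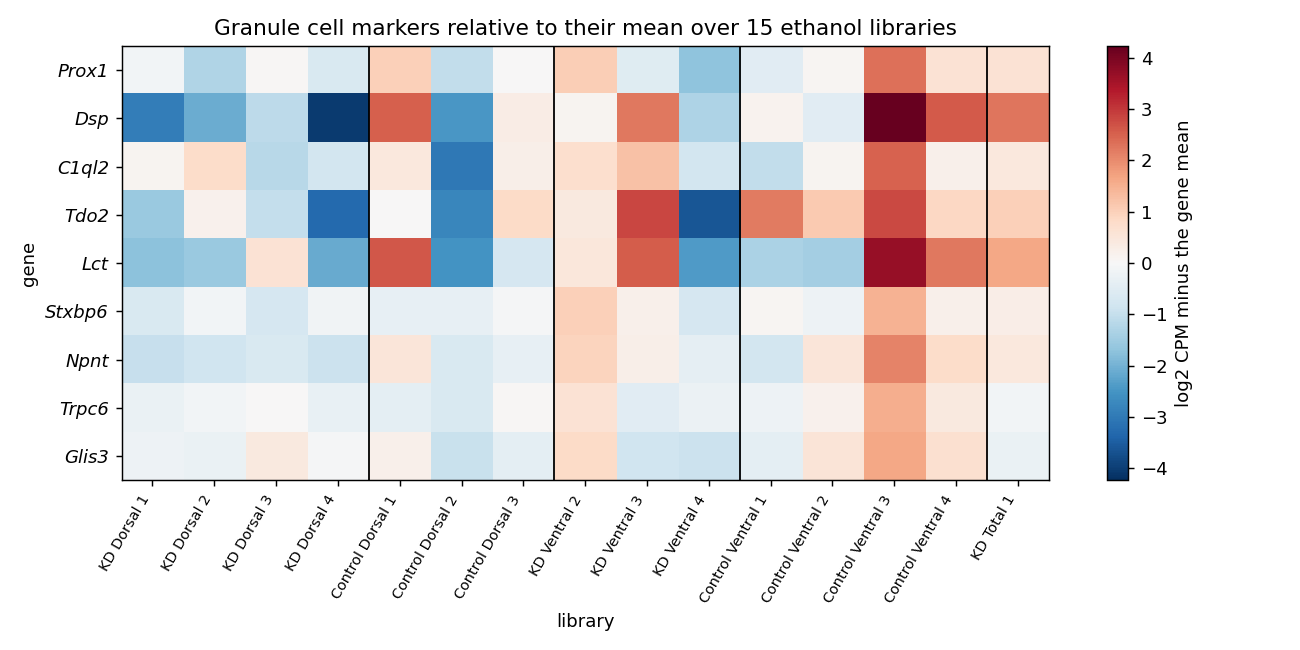
Log2 CPM, without a prior count, of each member (rows) in each of the 15 libraries (columns) minus the member's mean over the libraries. Vertical lines part the groups. Ventral control 3 is above the mean for all 9 members, and Dsp, Lct and Tdo2 show the strongest colours.

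Each member's log2 CPM was compared with the mean of the other 8 over the 15 libraries, as a description, since the libraries share depth, tissue and scaling. Npnt (Pearson r 0.88), Dsp (0.88), Lct (0.86) and Prox1 (0.83) followed the others most closely. Stxbp6 (0.77), C1ql2 (0.75), Tdo2 (0.74), Trpc6 (0.70) and Glis3 (0.65) followed them less closely. Members differed more in the size of their swings: the SD of log2 CPM was 2.33 for Dsp, 2.06 for Lct and 1.75 for Tdo2, against 0.60 for Stxbp6 and 0.54 for Trpc6. Of genes outside the list with a mean of at least 5 CPM, those whose log2 CPM was most like the members' mean included Il1r1 (r = 0.91 over 15 libraries), Btbd3, Sema5a, Dock10, Mycl, Emx2, Plk5, Nsun7 and Ccdc85a (r = 0.81). Dock10 and Plk5 were in a wider list of 14 granule cell markers. All 9 genes named here were highest in ventral control 3. Choosing genes by likeness to the members' mean favours this, since that mean peaks in the same library. Plk5 held 59.9 CPM there and 3.39 to 24.5 CPM in the other 14 libraries.

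Ratios of reads between members do not depend on library scaling. Dsp took 4.10%, 14.4%, 11.96% and 2.81% of the reads of Dsp and Prox1 together in dorsal knockdown 1 to 4 (95% Clopper-Pearson intervals of 1.98 to 7.41%, 9.66 to 20.4%, 8.92 to 15.6% and 0.918 to 6.43%, for counting error only). In dorsal control 1 to 3 it took 46.1%, 10.1% and 26.6% (40.4 to 51.8%, 6.36 to 15.02% and 23.4 to 30.0%). In ventral knockdown 2 to 4 it took 13.5%, 66.8% and 28.0%, and in ventral control 1 to 4 it took 31.8%, 17.03%, 53.0% and 54.3%. The share of Dsp thus differed between libraries beyond counting error, with intervals of 0.918 to 6.43% in dorsal knockdown 4 and 63.2 to 70.2% in ventral knockdown 3. Ventral controls 3 and 4 had like shares although their Prox1 levels were 180.8 and 55.1 CPM.

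The dorsal-leaning Lct was set against the ventral-leaning Trpc6 in the same way. Lct took 17.3%, 17.3%, 46.2% and 13.9% of their joint reads in dorsal knockdown and 82.7%, 13.6% and 25.5% in dorsal control. The Lct share in ventral tissue was 34.2%, 82.7% and 11.5% in knockdown and 20.9%, 15.8%, 71.5% and 66.6% in control. The share did not separate the regions: dorsal control 1 and ventral knockdown 3 had the same share, and the highest ventral controls lay above 6 of 7 dorsal libraries. The total-hippocampus library had 65.9%. Lct swung more than Trpc6 over the libraries (SD of log2 CPM 2.06 against 0.54), so the share moved mainly with Lct. Whether the share follows position along the axis was not tested.

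**Figure D3:**
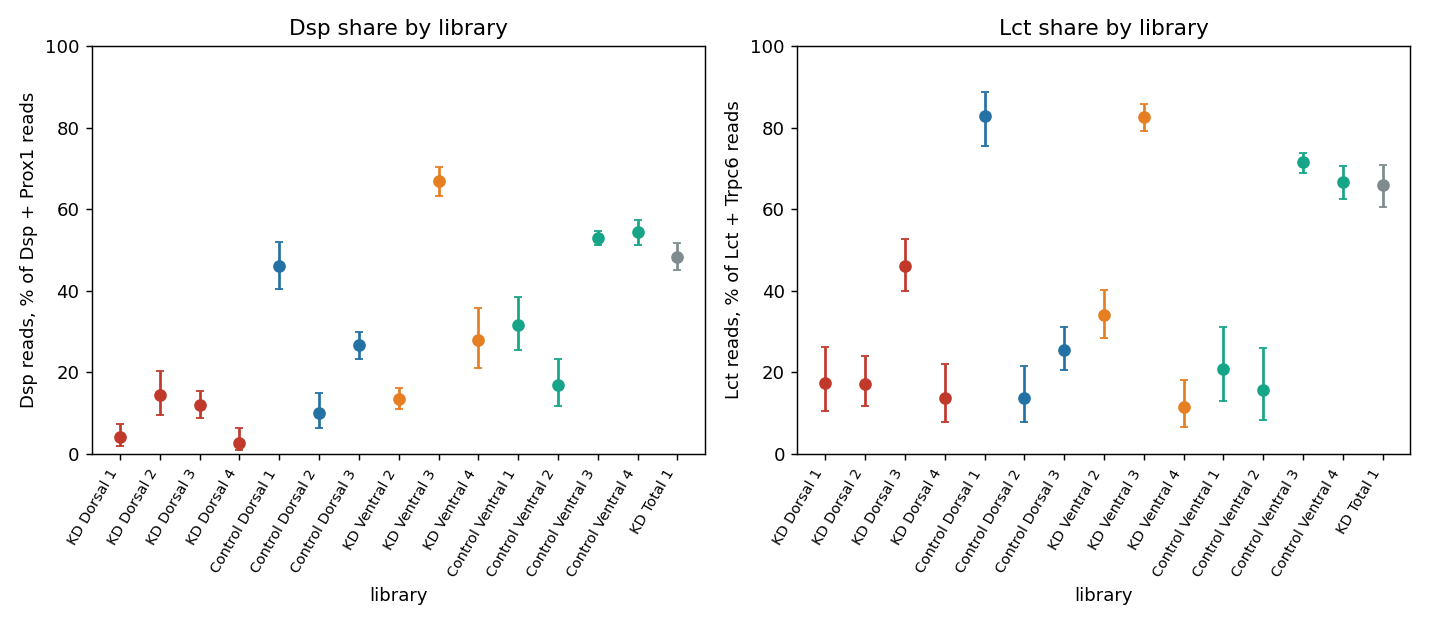
Reads of Dsp as a percent of Dsp and Prox1 reads (left) and of Lct as a percent of Lct and Trpc6 reads (right) in each library; bars are 95% Clopper-Pearson intervals. The Dsp share is 2.81 to 14.4% in dorsal knockdown, and the Lct share is 82.7% both in dorsal control 1 and in ventral knockdown 3.

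Knockdown and control were compared in dorsal tissue, the injected region by the protocol. Of the members, 6 were on the lower side in knockdown and 3 on the higher side, and none was called. The median log2 fold change over the 9 was -0.62, against 0.027 over all tested genes. Over all genes 0 of 14578 were called by edgeR (background 0%; 667 at an unadjusted p under 0.05), and the 6 genes that DESeq2 called held no member. No member's groups lay apart, where 3.2% of all tested genes had every knockdown library below every control and 3.85% had it above. Dsp had the largest difference, 2.43 ± 1.92 CPM in knockdown (SD, n = 4) and 25.9 ± 32.1 CPM in control (SD, n = 3), with a log2 fold change of -3.29 (SE 1.25, unadjusted p = 0.0194, adjusted p = 0.959 by edgeR). Lct was at -1.82 (SE 1.37), Tdo2 at -0.85 (SE 1.09), Npnt at -0.72 (SE 0.52), Prox1 at -0.62 (SE 0.70) and Stxbp6 at -0.15 (SE 0.41). C1ql2 (0.12, SE 0.83), Trpc6 (0.15, SE 0.38) and Glis3 (0.34, SE 0.50) were on the other side. The median was 0.003 without dorsal control 1 and -0.95 without dorsal control 2, and without dorsal control 1 Lct stood at 0.60 and Dsp at -1.63.

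In ventral tissue all 9 members were on the lower side in knockdown, with a median log2 fold change of -0.64 against -0.012 over all tested genes. None was called, nor was any of the 14578 genes (background 0%; 593 at an unadjusted p under 0.05; 34 called by DESeq2, none a member). No member's groups lay apart, where 1.51% of all tested genes lay wholly lower in knockdown and 1.15% wholly higher. Prox1 averaged 37.1 ± 33.6 CPM in knockdown (SD, n = 3) and 74.9 ± 71.6 CPM in control (SD, n = 4), a log2 fold change of -1.02 (SE 0.71). Dsp was at -1.72 (SE 1.16), Glis3 and Lct at -0.88 each (SE 0.49 and 1.30), and the others between -0.64 and -0.24. The smallest unadjusted p was 0.0922, for Glis3 (adjusted p = 1 by edgeR). Without ventral control 3 the median was -0.022, Prox1 stood at -0.12 and Dsp at -0.41, and without ventral knockdown 2 Prox1 stood at -2.06.

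**Figure D4:**
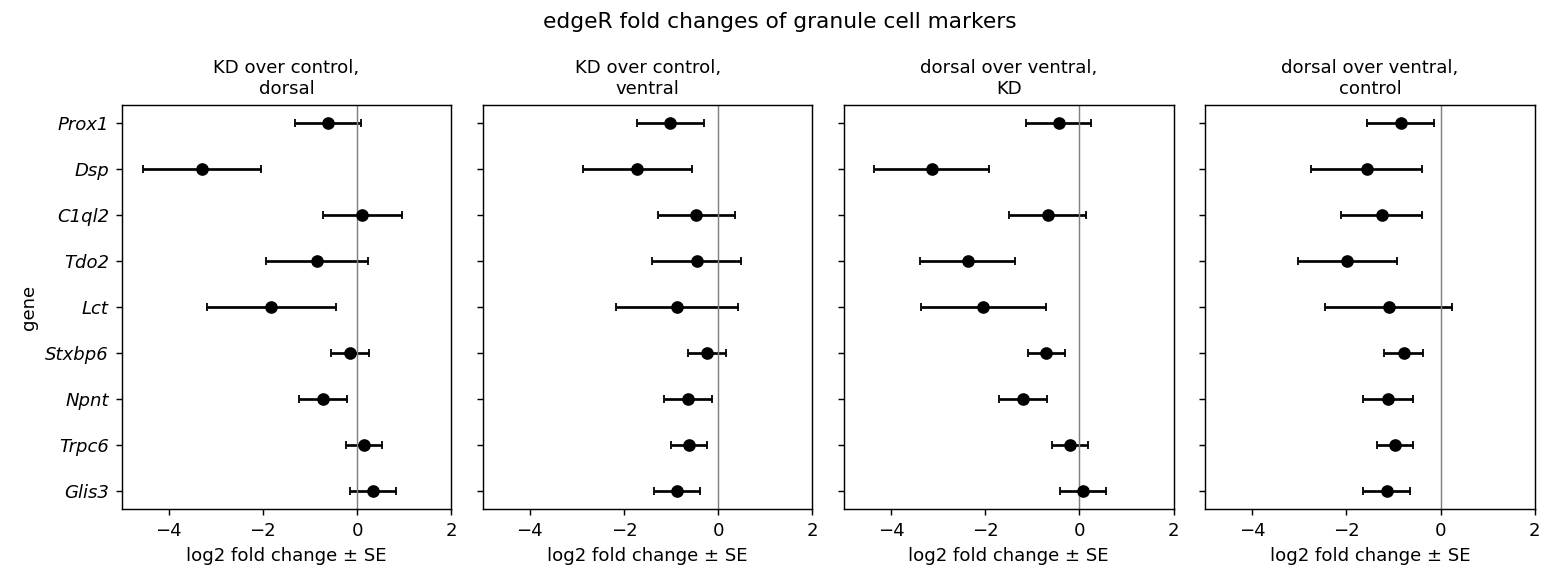
Log2 fold change of each member with its standard error in 4 comparisons, from 1 edgeR model over 14 libraries. Values left of 0 are lower in knockdown (the left pair of panels) or in dorsal tissue (the right pair); no member passed the test over all genes.

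Dorsal and ventral tissue were compared in each arm. In the knockdown arm 8 of 9 members were on the lower side in dorsal tissue (median log2 fold change -0.70, against -0.010 over all tested genes). Dsp was at -3.14 (SE 1.22, unadjusted p = 0.0218), Tdo2 at -2.37 (SE 1.01, unadjusted p = 0.0342) and Npnt at -1.20 (SE 0.50, unadjusted p = 0.0316), each with an adjusted p of 1 by edgeR. Npnt averaged 8.97 ± 0.967 CPM in dorsal knockdown (SD, n = 4) and 20.8 ± 9.56 CPM in ventral knockdown (SD, n = 3). It was the 1 member whose groups did not overlap, where 0.734% of all tested genes lay wholly lower in dorsal tissue and 1.04% wholly higher. No gene was called (0 of 14578, background 0%; 317 at an unadjusted p under 0.05; 0 with DESeq2). Without ventral knockdown 3 the member median was -0.42, Tdo2 stood at -0.35 and Dsp at -1.68. Npnt was at -0.78 without ventral knockdown 2, and Glis3, at 0.079 in the full comparison, was at 0.89 without it.

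In the control arm all 9 members were on the lower side in dorsal tissue, at a median log2 fold change of -1.11, against -0.065 over all tested genes. Glis3 averaged 13.1 ± 5.31 CPM in dorsal control (SD, n = 3) and 28.1 ± 16.1 CPM in ventral control (SD, n = 4), at -1.14 (SE 0.50, unadjusted p = 0.0390, adjusted p = 0.731 by edgeR). Trpc6, the ventral-leaning channel, averaged 11.4 ± 2.93 CPM in dorsal and 22.2 ± 13.2 CPM in ventral control, at -0.96 (SE 0.39, unadjusted p = 0.0262, adjusted p = 0.731 by edgeR). Lct, the dorsal-leaning member, was at -1.10 (SE 1.35), on the same side. A list of 6 granule cell genes known to vary along this axis, 3 of them members, had 5 on the lower side and 1, Gsg1l, on the higher side (1.28, SE 0.63; list median -0.67, 0 called). In the knockdown arm 4 of the 6 were on the lower side, Gsg1l among them (-0.88, SE 0.62, with a list median of -0.54 and 0 called). The list mixes genes of opposite leaning, such as Lct and Trpc6, so its counts and medians cannot show a direction along the axis. Tdo2 was the 1 member whose groups did not overlap, where 3.48% of all tested genes lay wholly lower in dorsal tissue and 5.56% wholly higher. No gene was called (0 of 14578, background 0%; 813 at an unadjusted p under 0.05; 13 with DESeq2, none a member). Without ventral control 3 the median was -0.29, Trpc6 stood at -0.48 and Glis3 at -0.71, and Prox1 and Lct changed sign (0.056 and 0.20).

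An interaction term gave the log2 fold change of the knockdown arm over control in dorsal tissue minus that in ventral tissue. The member median was 0.085, against 0.049 over all tested genes, with 5 on the higher and 4 on the lower side. Glis3 (1.22, SE 0.70, unadjusted p = 0.100) and Dsp (-1.57, SE 1.64) lay at the ends, and adjusted p was 0.998 for all 9 by edgeR. No gene was called (0 of 14578, background 0%; 672 at an unadjusted p under 0.05; 7 with DESeq2, none a member).

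The wider granule list of 14 genes shares no gene with the members. In dorsal knockdown over control 10 of 14 were on the lower side (median -0.22). In ventral knockdown over control 13 of 14 were (median -0.55). Over all tested genes 53.3% and 48.2% were on the higher side. For dorsal over ventral tissue, 12 of 14 were lower in the knockdown arm (median -0.14) and 13 of 14 in controls (median -0.64). Over all tested genes 47.9% and 43.6% were higher, and 0 of the list were called in each comparison. The list's mean log2 CPM, relative to each gene's mean, was 1.20 in ventral control 3. In ventral controls 1, 2 and 4 it was -0.34, -0.02 and 0.25. How far the counts rest on ventral control 3 was not tested. The most abundant genes of this list were Pitpnm2 and Ahcyl2. Pitpnm2 held 801.1 CPM in ventral control 3 and 105.3 to 441.2 CPM in the other 14 libraries. Ahcyl2 held 324.4 CPM and 162.2 to 316.2 CPM, in the same order. Of 6 markers of immature granule neurons 4 were tested, with 0 called and medians of 0.006 and -0.36 for knockdown over control in dorsal and ventral tissue. Mossy cell markers, of neurons in the dentate hilus, were lower in sign by 4 of 4 in ventral knockdown over control (median -1.52) and higher by 4 of 4 in dorsal knockdown over control (median 0.80), with 0 called.

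Markers of pyramidal neurons also differed between single libraries. The summed level of 8 CA1 markers was 534.6 to 908.4 CPM in dorsal knockdown and 912.3 to 1125 CPM in dorsal control, and 712.6 to 1378 CPM in ventral knockdown and 174.2 to 687.1 CPM in ventral control, with none of the 8 at 0 in any library. The lowest sum, 174.2 CPM, was in ventral control 3, where the summed members stood at 1018 CPM, and the highest, 1378 CPM, in ventral knockdown 4, where they stood at 104.1 CPM. Mpped1 held 25.2 CPM in ventral control 3 and 52.8 to 323.2 CPM elsewhere, and Wfs1 held 624.6 CPM in ventral knockdown 4 and 34.4 to 309.3 CPM elsewhere. In controls 7 of 8 CA1 markers were on the higher side in dorsal tissue (median 1.27), the opposite side from all 9 granule markers, with 0 called. In the knockdown arm 5 of 8 were on the higher side (median 0.17). Summed CA3 markers ran from 203.6 to 404.4 CPM in dorsal knockdown and 130.2 to 293.5 CPM in dorsal control, and from 101.2 to 410.9 CPM in ventral knockdown and 266.9 to 334.9 CPM in ventral control. In controls 7 of 8 CA3 markers were lower in dorsal tissue (median -0.85), the same side as the granule markers. So were 4 of 5 CA2 markers (median -0.86), 4 of 4 mossy cell markers (-1.33) and 9 of 9 choroid plexus markers (-3.39), with 0 called. In the knockdown arm 7 of 8 CA3 markers were higher in dorsal tissue (median 0.37). The part of the makeup of each piece in the member differences was not tested.

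**Figure D5:**
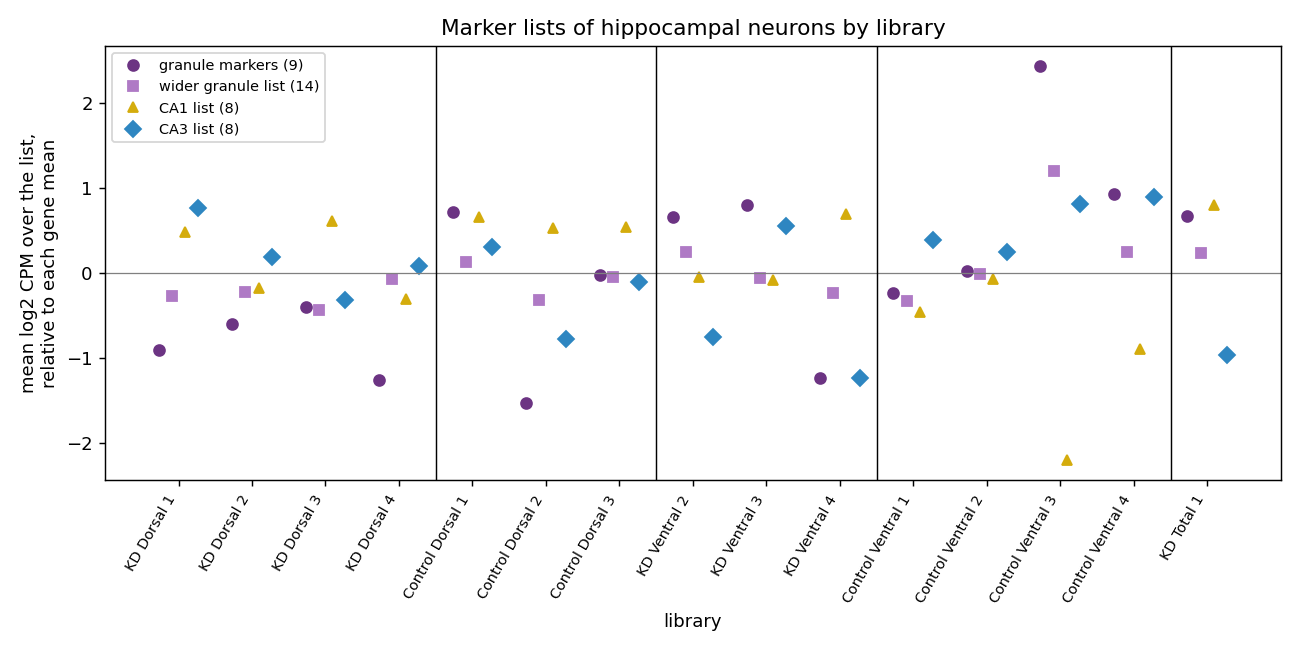
Mean over each list of log2 CPM relative to each gene's mean, for the 9 granule markers, the wider granule list, CA1 markers and CA3 markers, in each library. In ventral control 3 the granule markers are at 2.43 and the CA1 markers at -2.21.

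Other cell types were followed beside the members. Prox1 is also made by some interneurons. The 10 markers followed here are of interneurons in general, so their sum does not single out those that make Prox1. They summed to 1209 to 1684 CPM in dorsal knockdown and 1035 to 1305 CPM in dorsal control. In ventral tissue they summed to 1075 to 2593 CPM in knockdown and 819.9 to 1710 CPM in control, and to 872.6 CPM in ventral control 3, where Prox1 was highest. Choroid plexus markers summed to 68.6 to 74.3 CPM in ventral knockdown and to 46.6 to 15370 CPM in ventral control, with Ttr, the thyroid hormone carrier, at 14291.9 CPM in ventral control 4 and 566.0 CPM in ventral control 3. Microglia markers were on the higher side by 6 of 6 in dorsal knockdown over control (median 0.70), the comparison with 6 of 9 members on the lower side. In ventral knockdown over control, with 9 of 9 members on the lower side, they were also higher by 6 of 6 (median 0.15). In both comparisons 0 of these markers were called. Their part in the member differences was not tested.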

How the data were processed

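The authors deposited a table of raw read counts for 24498 genes in 21 libraries, with 5 summary lines. The submitters' processing notes name mm10, HTSeq 0.6.1p1 and STAR 2.5.2a. The strand setting of the counting is not given. Per the labels, the library kit was directional. The summary lines (39.0% to 59.2% of each column's total in the 15 deep ethanol libraries) entered neither library sizes nor tests, and 0 sample columns were unused.

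Groups came from the sample titles. Deep libraries were those with over 1000000 gene reads. Counts of 14 dorsal and ventral ethanol libraries were fitted with edgeR 4.0.16 in R 4.3.3 (4 group means, filterByExpr with a minimum count of 10, TMM, robust quasi-likelihood F-test), with Benjamini-Hochberg adjustment over all tested genes and calls under 0.05. Levels are TMM-scaled CPM over 15 libraries, and log2 CPM used a prior count of 1. Promoters and gene models were read with Python 3.11.15 and matched by symbol (9 of 9 members). The fit was tested on simulated data.

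The members and lists were chosen with earlier results of these data known. Named genes were the 9 members, Acss2, up to 2 called genes in each direction or else the 2 most abundant genes of each other list described, and the 10 genes most like the members' mean, of which 1 is not reported here. Plain CPM precision is limited by depth: 1 to 3 reads lie behind several Tdo2 values, and intervals cover counting error only, since the reads carry no molecular identifiers. Alternatives were no low-count filter, RLE scaling, a replicate block, DESeq2 1.42.0, only the groups compared, all 20 dorsal and ventral libraries, a prior count of 0.5, and leaving out each library in turn.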

Additional observations from a re-analysis of the deposited data

Results flagged for a closer look

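Within groups of 4 libraries, 3 member values lay far from the others by Dixon's test, which flags about 1 group in 20 by chance. C1ql2 held 214.9 CPM in ventral control 3, where the next ventral control held 44.05 CPM. Stxbp6 held 144.8 CPM in the same library, where the next held 60.75 CPM. Lct held 12.36 CPM in dorsal knockdown 3, where the next dorsal knockdown library held 2.746 CPM.

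Reads of the members also lay in libraries outside the comparisons. The total-hippocampus knockdown library held 2638 member reads. Of the untreated libraries, knockdown 1 held 39, control 1 held 56 and control 2 held 100, among 93311, 115467 and 221847 gene reads. Prox1 took 53.8%, 60.7% and 29.0% of these member reads (95% Clopper-Pearson intervals of 37.2 to 69.9%, 46.8 to 73.5% and 20.4 to 38.9%). In the untreated libraries 0.991% to 1.43% of uniquely aligned reads lay in genes, so these counts were set against no ethanol library.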

How the results depend on the processing

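Across RLE scaling, no low-count filter, only the groups compared, a prior count of 0.5, DESeq2 and all 20 dorsal and ventral libraries, no member log2 fold change turned its sign and no member was called. Over all genes edgeR called 0 in every comparison, whereas DESeq2 called 6 and 34 for knockdown over control in dorsal and ventral tissue, 13 for dorsal over ventral controls and 7 for the interaction. With all 20 libraries edgeR called 1 gene for knockdown over control in ventral tissue and 1 for the interaction. Leaving out single libraries, it called 0 to 8 genes for knockdown over control in ventral tissue, 0 to 6 for dorsal over ventral controls (both most without ventral control 1) and 0 to 2 for the interaction (most without ventral knockdown 3). The causes were not tested.

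Leaving out single libraries turned the sign of 35 member values, 9 of them without ventral control 3, and called no member; the ranges of the members concerned follow. For knockdown over control in dorsal tissue, these were Prox1 (-1.001 to 0.003), C1ql2 (-0.43 to 0.55), Tdo2 (-1.58 to 0.44), Lct (-2.89 to 0.60), Trpc6 (-0.012 to 0.39). For knockdown over control in ventral tissue, these were C1ql2 (-0.92 to 0.72), Tdo2 (-2.48 to 0.12), Lct (-2.55 to 0.40), Stxbp6 (-0.75 to 0.26), Npnt (-1.06 to 0.045). For dorsal over ventral tissue in knockdown, these were Prox1 (-0.88 to 0.60), Trpc6 (-0.42 to 0.20), Glis3 (-0.21 to 0.89). For dorsal over ventral tissue in controls, these were Prox1 (-1.47 to 0.056), Lct (-3.52 to 0.20). For the interaction, these were Prox1 (-0.50 to 1.46), Dsp (-2.90 to 0.084), C1ql2 (-0.61 to 1.05), Tdo2 (-1.12 to 1.62), Lct (-2.24 to 1.47), Stxbp6 (-0.41 to 0.60), Npnt (-0.77 to 0.34). The member medians ran from -0.95 to 0.003 and from -1.02 to -0.022 for knockdown over control in dorsal and ventral tissue, from -1.11 to -0.42 and from -1.496 to -0.29 for dorsal over ventral tissue in knockdown and in controls, and from -0.61 to 0.72 for the interaction.

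Whether the replicate numbers pair the libraries is not stated. Deviations of same-numbered libraries correlated at -0.28 to 0.43. They were not set against those of differently numbered libraries, so they cannot show whether libraries were paired. With the number as a replicate block the Tdo2 interaction stood at 1.11, against -0.40 without it, the member median for knockdown over control in dorsal tissue stood at -0.036, against -0.62, and the block turned no other member sign and added no call. Depth limits Tdo2 most, with 1 to 3 reads in 5 of the 14 fitted libraries.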
